A study of Mus musculus with 10 samples.

Results

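The natriuretic peptide system was followed in right atrial RNA-seq through 8 genes, chosen by name as the peptides (Nppa, Nppb, Nppc), their receptors (Npr1, Npr2, Npr3) and the proteases that cut the peptide precursors (Corin, Furin). All 8 were among the 23337 genes of the deposited count table, and 7 passed the filter on low counts, which left 13084 genes for testing. Nppc was the member that did not pass.

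Atrial heart muscle cells make atrial natriuretic peptide (ANP, from Nppa), store its precursor in granules and release it when the wall is stretched. Brain natriuretic peptide (BNP, from Nppb) is made by atrial and ventricular muscle and is a widely used blood marker of heart failure, whereas C-type natriuretic peptide (from Nppc) is made mainly by endothelial cells. ANP and BNP bind the receptor guanylyl cyclase encoded by Npr1, C-type peptide binds that encoded by Npr2, both make cyclic GMP, and the receptor encoded by Npr3 takes the peptides up and clears them. Corin, a transmembrane serine protease of heart muscle cells, cuts the ANP precursor, and furin, a convertase of the Golgi, is known to cut the BNP precursor.

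The study asked which genes of the adult atrium depend on Tbx5, a T-box transcription factor of heart muscle needed for atrial rhythm. RNA of the right atria was sequenced as 1 library per mouse from 10 mice, of which 4 carry a control label and 6 a Tbx5 mutant label. Genotype was given for the 4 as Control and for the 6 as R26Cre driven TBX5 removal. By design, exon 3 of Tbx5 is lost in such mice once tamoxifen activates a Cre that is expressed in all tissues from the R26 locus. This driver does not restrict the deletion to heart muscle or to the atrium. Tamoxifen was injected at 0.167 mg per day on 3 days, and tissue was taken 1 week later. The labels gave the strain of both groups as mix and their age as 8 to 10 weeks, and the extraction notes 6 to 8 weeks; the control genotype was labelled no further. For left atrial libraries, which are not analysed here, the study names mice with R26CreERt2 alone as controls, and whether the right atrial controls were the same is not given in the sources used here. The libraries were labelled M1, M2, F1 and F2 in the control group and M1 to M3 and F1 to F3 in the mutant group, the letters being the labelled sex. Because each library is a mouse, p-values measure the spread between these mice.

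A library held 5703775 to 7095141 counts, so that 3 counts, the smallest number taken as detected, made up 4.23e-05% to 5.26e-05% of a library. Tbx5 itself went against the labels: mean CPM, which are counts scaled to a common library size, was 205.3 ± 17.8 among controls (SD, n = 4) and 393.9 ± 83.3 among mice labelled Tbx5 mutant (SD, n = 6), with all 6 above every control (log2 fold change 0.94, edgeR adjusted p = 0.000495). Gene counts cannot tell transcripts with exon 3 from those lacking it. Directions are therefore given relative to the labels. The transcript Xist was high, and the Y-linked Ddx3y at 0, in the control mice labelled M, with the reverse in those labelled F, so the sex labels of the control group were at odds with these transcripts. The ribosomal RNA gene Rn45s took 38.9% of counts in mutant M3 and 0.268% to 1.49% in the other 9 libraries. Log2 fold change fell with transcript length over all tested genes with a known length (Spearman's rho -0.326, n = 11868, across genes, which are not independent replicates), and members are therefore also given with that trend removed where it matters.

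Nppa and Nppb are neighbours on the forward strand of chromosome 4, with 13516 bases between the end of Nppb and the start of Nppa. In GENCODE M21 on GRCm38, Nppb (ENSMUSG00000029019.8) spans chr4:147985788-147987205 and Nppa (ENSMUSG00000041616.9) spans chr4:148000722-148002079, each with 3 exons. The stretches ahead of their starts are shown because these 2 genes moved in opposite directions. Letters of T-box, NKX2-5 and GATA elements were searched on both strands of the 250 bases before the RefSeq start (GRCm38.p6, all 8 members matched), as GGTGT, the longer AGGTGTGA that contains it, AAGTG and GATAA, and capitals mark a match on either strand.
Nppa, chr4:148000472-148000721, forward strand: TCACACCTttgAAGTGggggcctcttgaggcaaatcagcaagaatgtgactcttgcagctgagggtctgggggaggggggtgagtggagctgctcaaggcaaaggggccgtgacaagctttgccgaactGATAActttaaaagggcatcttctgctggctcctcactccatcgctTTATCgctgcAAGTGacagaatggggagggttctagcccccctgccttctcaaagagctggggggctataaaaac
Nppb, chr4:147985650-147985787, forward strand: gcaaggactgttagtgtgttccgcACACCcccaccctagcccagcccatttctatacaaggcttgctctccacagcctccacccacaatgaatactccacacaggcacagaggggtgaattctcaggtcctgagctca
Nppb GATAA pair, chr4:147985799-147985828, forward strand: tgcagctGATAAatcagaGATAAccccacc
The GENCODE start of Nppb lies 112 bases before the RefSeq start, and the Nppb run was ended there. The Nppa stretch held AGGTGTGA once, on the opposite strand 250 bases before the start, AAGTG 239 and 65 bases before it, and GATAA 121 and 75 bases before it. The Nppb stretch held GGTGT 226 bases before its start and GATAA 94 and 83 bases before it, with no match to AGGTGTGA or AAGTG. Nppa was the member with a match to AGGTGTGA. Of 32851 mouse promoters of the same length, 36.2% held GGTGT, 1.12% AGGTGTGA, 40.7% AAGTG and 22.6% GATAA. These matches describe letters and not bound sites.

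Nppa was among the most abundant transcripts of the right atrium. It ranked 4 of all tested genes by mean CPM, behind Rn45s, Ttn and Myh6, and 1 of 11868 by mean CPM per kilobase of transcript, at 24280 against 22280 for the next gene, Rpph1. Nppa was lower in the mice labelled Tbx5 mutant. It stood at 28080 CPM in control M1, 27780 in control M2, 24270 in control F1 and 27170 in control F2. In the mice labelled Tbx5 mutant it ranged from 10170 CPM in M1 through a median of 17210 to 23670 in M3. Every mutant library lay below every control library, and mutants M1 and M2 were at less than the level of any other mouse. The log2 fold change was -0.65 (fold 0.638, SE 0.23, 95% interval -1.13 to -0.16, edgeR adjusted p = 0.0426), and the exact permutation test of the mean CPM, two-sided, gave p = 0.00952, the smallest that 210 assignments of 4 against 6 mice allow. Fewer cells that make a transcript and less transcript per cell cannot be told apart in bulk tissue.

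The call on Nppa was close to the threshold. As a share of a library's counts, without the TMM scaling, Nppa made up 2.373% to 2.898% in controls and 1.038% to 2.413% among mutants, so that mutant F3 lay above control F1. With Rn45s counts set aside, mutants F3 (2.427%) and M3 (2.495%) both lay above control F1 (2.381%). The adjusted p stayed under 0.05 without mutant F3 (0.0336) and without mutant M3 (log2 fold change -0.76, adjusted p = 0.0173), and passed 0.05 when any 1 of the other 8 libraries was left out: 0.0862, 0.0842, 0.0637 and 0.0844 without control M1, M2, F1 and F2, and 0.0669, 0.0637, 0.0544 and 0.0942 without mutant F1, F2, M1 and M2 (edgeR). With the length trend removed, the log2 fold change was -0.91 (edgeR adjusted p = 0.00536). The mutant mice varied more than the controls, with a coefficient of variation of 31.9% against 6.51%.

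Nppb moved the other way. It stood at 477.9 CPM in control M1, 455.8 in control M2, 339.0 in control F1 and 403.6 in control F2. In the mice labelled Tbx5 mutant it ranged from 685.7 CPM in M1 through a median of 1007 to 1538 in M3. All 6 mutant libraries lay above all 4 controls. The mean rose from 419.1 ± 61.8 CPM (SD, n = 4) to 1087 ± 346.8 CPM (n = 6), a log2 fold change of 1.38 (fold 2.59, SE 0.22, 95% interval 0.91 to 1.84, edgeR adjusted p = 0.000396), and the exact permutation test gave p = 0.00952. Without mutant M3 the log2 fold change was 1.25 (edgeR adjusted p = 0.00073), and with the length trend removed it was 1.08 (edgeR adjusted p = 0.000436).

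**Figure D1:**
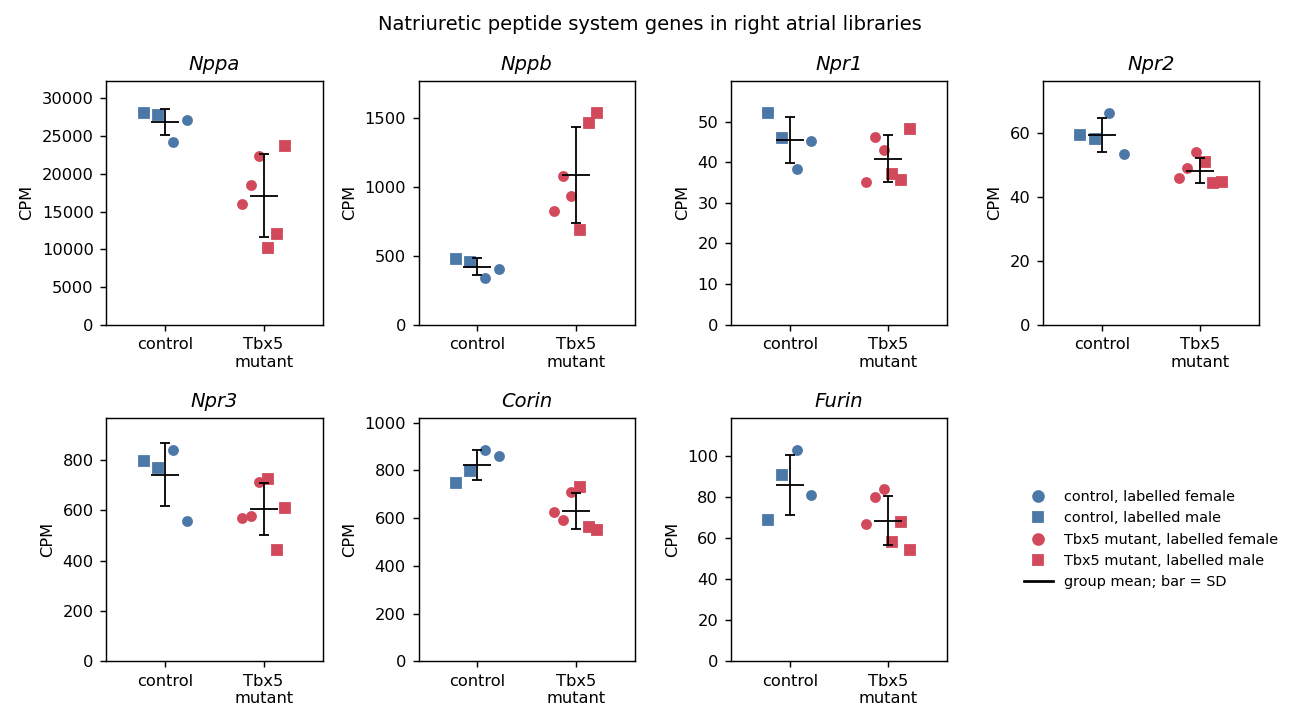
CPM (vertical axes, from 0) of the 7 tested genes in each right atrial library, 4 labelled control and 6 labelled Tbx5 mutant; circles are mice labelled female, squares mice labelled male, and the bar is the group mean with its SD. Nppa falls from a control range of 24270 to 28080 CPM to 10170 to 23670 CPM, Nppb rises from 339.0 to 477.9 CPM to 685.7 to 1538 CPM, and Corin is the other gene whose groups do not overlap.

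Nppa and Nppb were the members called, with an adjusted p under 0.05, a fold change over 1.5 and a normalized control mean over 1. Thus 2 of 7 tested members were called, beside 15.7% of all tested genes, with 1 lower beside 7.16% and 1 higher beside 8.5%. An adjusted p under 0.05 alone was reached by 4 members, beside 31.3% of tested genes, and the groups did not overlap for 3 members, beside 22.7%. Of the 7 members, 6 had a negative log2 fold change. Their median was -0.296, beside -0.005 over all tested genes.

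The ratio of Nppa to Nppb inside a library does not depend on library scaling. Nppa counts were 58.8, 61.0, 71.6 and 67.3 times those of Nppb in control M1, M2, F1 and F2. The ratio was 8.19 to 24.0, with a median of 16.2, in the mice labelled Tbx5 mutant, lowest in M2 and highest in F3. The groups were far apart: mean log2 ratios were 6.01 ± 0.131 (SD, n = 4) and 3.97 ± 0.524 (n = 6), a difference of -2.04 and a fold of 0.243. Leaving out each library in turn kept the difference between -2.16 and -1.85. Together the peptide transcripts made 27250 ± 1804 CPM in controls and 18200 ± 5583 CPM in the mice labelled Tbx5 mutant, of which Nppb was 1.53% ± 0.136 and 6.29% ± 2.41. The mean of Nppa differed by -9710 CPM and that of Nppb by 668 CPM. The rise of Nppb was thus small beside the fall of Nppa in CPM.

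**Figure D2:**
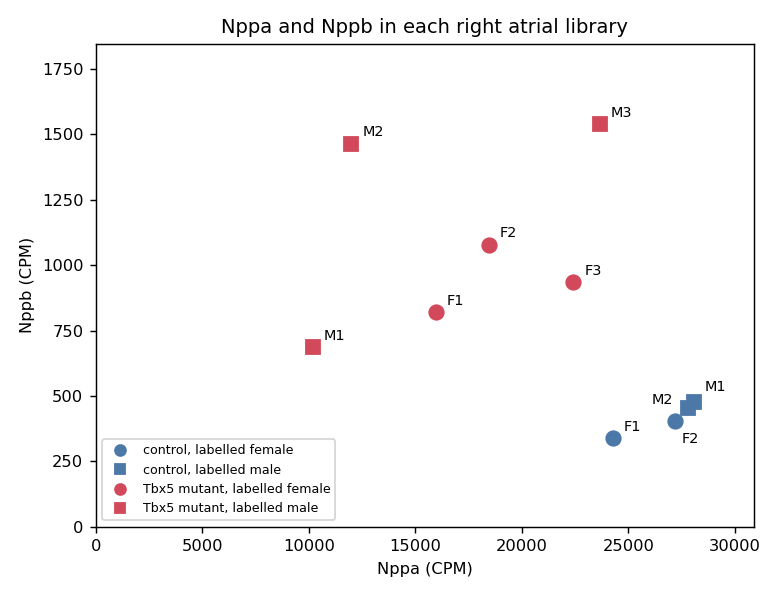
Nppb CPM (vertical axis) against Nppa CPM (horizontal axis) in each library, named by its label; blue is control, red Tbx5 mutant, circles and squares the labelled sexes. The 4 controls cluster at high Nppa and low Nppb, with a ratio of 58.8 to 71.6, and the 6 mutants spread above them, with a ratio of 8.19 to 24.0.

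Nppc was at or near 0. It had no count in 8 libraries, all 4 controls among them, 3 counts in mutant F3 and 1 in mutant M2. A count of 0 allows up to 3 counts of the library, or 4.23e-05% to 5.26e-05% of its counts, without the TMM scaling. Nppc was not tested and has no fold change.

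The receptors showed smaller differences. Npr1, the ANP and BNP receptor, stood at 52.15, 45.83, 38.25 and 45.21 CPM in control M1, M2, F1 and F2. In the mice labelled Tbx5 mutant it ranged from 35.17 through a median of 40.05 to 48.19 CPM. The groups overlapped, and the log2 fold change was -0.15 (95% interval -0.41 to 0.10, edgeR adjusted p = 0.339; exact permutation p = 0.257).

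Npr2, the receptor for C-type peptide, was lower in the mice labelled Tbx5 mutant by less than the fold of 1.5. It stood at 59.15, 58.07, 66.16 and 53.33 CPM in control M1, M2, F1 and F2, and at 44.27 to 53.94 CPM, with a median of 47.47, in the mice labelled Tbx5 mutant. Of the 6 mutants, 5 lay below all controls, and mutant F3 at 53.94 CPM just above control F2. The log2 fold change was -0.30 (SE 0.09, 95% interval -0.49 to -0.10, edgeR adjusted p = 0.0228; exact permutation p = 0.019). The adjusted p was 0.0564 without control M1 and 0.0864 without control F1 (edgeR).

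Npr3, the clearance receptor, was the most abundant of the receptor transcripts per kilobase. It stood at 797.0, 769.7, 841.6 and 559.1 CPM in control M1, M2, F1 and F2, and at 442.0 to 723.9 CPM, with a median of 593.9, in the mice labelled Tbx5 mutant. Control F2 lay within the range of the mutants. The log2 fold change was -0.29 (95% interval -0.61 to 0.03, edgeR adjusted p = 0.149; exact permutation p = 0.0952). With the length trend removed, the log2 fold change of Npr3, whose transcript of 6892 bases is the longest among the members, was -0.08 (edgeR adjusted p = 0.691).

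The balance of the receptors was compared inside libraries. Counts of Npr1 were 0.0455 to 0.0809 of those of Npr3 in controls and 0.0511 to 0.0804 among mice labelled Tbx5 mutant. Those of Npr1 were 0.578 to 0.882 of Npr2 in controls and 0.727 to 1.08 among mice labelled Tbx5 mutant. Both ratios overlapped between the groups.

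Corin, which turns the ANP precursor into ANP, was lower in the mice labelled Tbx5 mutant. It stood at 748.4, 799.4, 887.5 and 859.6 CPM in control M1, M2, F1 and F2, and at 549.5 to 728.9 CPM, with a median of 609.3, in the mice labelled Tbx5 mutant. The groups did not overlap, with mutant M1 closest to the controls. The log2 fold change was -0.39 (fold 0.762, SE 0.11, 95% interval -0.63 to -0.16, edgeR adjusted p = 0.0152; exact permutation p = 0.00952), a fold below the 1.5 needed for a call. Without control F1 the adjusted p was 0.0506, without mutant M3 it was 0.0264, and with the length trend removed the log2 fold change was -0.28 (edgeR adjusted p = 0.0428).

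Furin stood at 68.58, 90.83, 103.0 and 80.81 CPM in control M1, M2, F1 and F2, and at 54.18 to 84.04 CPM, with a median of 67.37, in the mice labelled Tbx5 mutant. The groups overlapped. The log2 fold change was -0.32 (95% interval -0.61 to -0.03, edgeR adjusted p = 0.0894; exact permutation p = 0.0762). Without control M1 the adjusted p was 0.0488, and without any other single library it was 0.0536 to 0.279 (edgeR). With the length trend removed, the log2 fold change was -0.24 (edgeR adjusted p = 0.202). Counts of Corin were 8.62 to 10.9 times those of Furin in controls and 7.43 to 12.6 times in the mice labelled Tbx5 mutant, and overlapped.

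**Figure D3:**
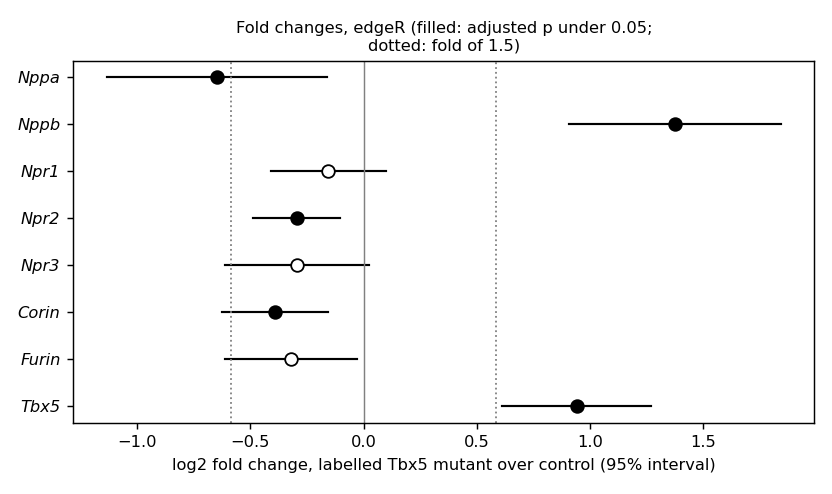
Log2 fold change of the mice labelled Tbx5 mutant over control (horizontal axis) with its 95% interval for the 7 tested genes and Tbx5, from edgeR; filled points have an adjusted p under 0.05 and dotted lines mark a fold of 1.5. Nppa (-0.65) and Nppb (1.38) lie beyond the dotted lines on opposite sides, and Npr2 (-0.30) and Corin (-0.39) are filled but inside them.

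Levels of different genes were set side by side per kilobase of the longest coding transcript. In controls the mean was 31010 CPM per kilobase for Nppa, 536.6 for Nppb, 169.4 for Corin, 107.6 for Npr3, 19.81 for Furin, 16.17 for Npr2, 11.16 for Npr1 and 0 for Nppc. In the mice labelled Tbx5 mutant the order was the same, at 19790 for Nppa, 1392 for Nppb, 129.2 for Corin, 87.91 for Npr3, 15.81 for Furin, 13.15 for Npr2, 10.05 for Npr1 and 0.0902 for Nppc. Furin and Npr2 were the neighbours in this order whose libraries overlapped, at 15.83 to 23.78 and 14.57 to 18.08 CPM per kilobase in controls. For Nppa, Npr1, Npr2, Corin and Furin an antisense gene overlaps the locus in GENCODE M21, and for Npr3 a bidirectional noncoding gene does. Whether counting used strand is not given in the sources used here, so reads of such partners cannot be told apart.

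The mutant mice were also compared with each other. Mutants M2 and M3 had the highest Nppb (1465 and 1538 CPM) and the lowest Corin (561.8 and 549.5 CPM), and mutant M1 had the lowest Nppb (685.7 CPM) and the highest Corin (728.9 CPM). Nppa did not follow this order, being lowest in M1 (10170 CPM) and M2 (11990 CPM) and highest in M3. Over the 10 libraries the Pearson correlation of log2 CPM between Nppb and Corin was -0.961, and that of the deviations from the group means was -0.88. Among all pairs of tested members, this correlation was the largest in size by both measures. It is given as a description, since the values share a library, its depth and its scaling.

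Genes whose log2 CPM most resembled that of a tested member other than Npr3 over the 10 libraries were sought among 10951 genes with a mean of at least 5 CPM, and the 3 highest Pearson correlations were taken. For Nppa these were Gsn, the actin-severing protein gelsolin (0.961), Wiz (0.961) and 1700113A16Rik (0.958), and for deviations from the group means 0.948, 0.923 and 0.934. Gsn fell from 5680 to 3340 mean CPM (log2 fold change -0.76, edgeR adjusted p = 0.00508). For Nppb they were Ly6e (0.985), Carhsp1 (0.985) and Prdx4, a peroxiredoxin of the endoplasmic reticulum (0.984). The highest for Corin were Zfp652 (0.973), Gng2 (0.969) and Abca5 (0.96). For Npr2 they were Larp1 (0.956), Pdcd4 (0.953) and Tbc1d22b (0.945), for Furin Tubd1 (0.919), Mark2 (0.916) and Bag6 (0.912), and for Npr1 Atxn7l1 (0.905), Sdf4 (0.888) and Deaf1 (0.886). All these values share libraries, and for members that differ between the groups the difference itself enters the correlation.

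Genes of cyclic GMP signalling other than the receptors, or of peptide breakdown, were followed as a list. Of 20 in the table, 15 were tested, with 4 called lower and 1 higher, beside 7.16% and 8.5% of all tested genes. The median log2 fold change was -0.092, and 0.057 with the length trend removed, at the same counts of calls. This list, like those below, was chosen with earlier results of these data known. Rgs2, which dampens G protein signals and is a target of cyclic GMP-dependent kinase, fell from 162.0 ± 27.2 to 58.9 ± 10.3 CPM (SD, n = 4 and 6; log2 fold change -1.46, edgeR adjusted p = 4.4e-06). Pde9a, a phosphodiesterase of cyclic GMP, fell from 13.7 to 6.4 mean CPM (log2 fold change -1.09, edgeR adjusted p = 5.5e-05). The nitric oxide-sensitive guanylyl cyclase subunit Gucy1a3 fell from 152 to 81.5 (-0.90), and Mrvi1, a partner of cyclic GMP-dependent kinase, from 191 to 106 (-0.85). Vasp, an actin regulator phosphorylated by that kinase, rose from 27.3 to 47.5 mean CPM (0.80). The most abundant genes not called were the phosphodiesterases Pde1c (-0.13, edgeR adjusted p = 0.542) and Pde3a (-0.23, edgeR adjusted p = 0.128).

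Of 11 convertases and serine proteases beside Corin and Furin, 4 were tested (median log2 fold change 0.106). None was called, beside 15.7% of all tested genes. Mbtps1, the site-1 protease, had a log2 fold change of 0.12 (edgeR adjusted p = 0.237) and Pcsk6, a convertase known to activate corin, of -0.11 (edgeR adjusted p = 0.686). In edgeR 0 of the 4 had an unadjusted p under 0.05, and DESeq2 and limma called 0 too.

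Of 13 genes of the secretory granule, 6 were tested (median log2 fold change -0.281). Of these, 2 were called lower and 0 higher, beside 7.16% and 8.5% of all tested genes. Pam, an amidating enzyme that is a major membrane protein of atrial granules, stood at 12300 ± 589 CPM (SD, n = 4) in controls and 6060 ± 514 CPM (n = 6) in the mice labelled Tbx5 mutant, a log2 fold change of -1.02 (SE 0.12, edgeR adjusted p = 5.63e-05). Its groups did not overlap. Vamp2, a protein of vesicle fusion, had 21.9 and 13.3 mean CPM (-0.71, edgeR adjusted p = 0.029) with overlapping groups. Cpe (0.01, edgeR adjusted p = 0.923) was not called, nor was Rab3a (-0.58, edgeR adjusted p = 0.00325), which fell by less than the fold required. Chga, chromogranin A, had no count in any library.

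Of 18 transcription factors known to act on the Nppa or Nppb promoters, 17 were tested (median log2 fold change -0.04). Of these, 3 were called lower and 2 higher, beside 7.16% and 8.5% of all tested genes. With the length trend removed 2 were called lower and 2 higher, and the median was 0.079. Tbx3, a T-box repressor that marks the conduction system, had 7.69 and 3.62 mean CPM (-1.07, edgeR adjusted p = 0.00518). Mef2a (-0.70) and Zfpm2, a cofactor of GATA factors (-0.65), fell, and the SRF coactivator Myocd (0.83) and Hand2 (1.09) rose. Among the factors whose elements were searched above, which were named after their values were seen, Gata4 (0.10, edgeR adjusted p = 0.434) and Gata6 (0.27, edgeR adjusted p = 0.0744) did not pass the test, and Nkx2-5 fell by less than the fold required (-0.43, edgeR adjusted p = 0.0204). The most abundant factors not called were Tbx20 (-0.04, edgeR adjusted p = 0.799) and Mef2c (-0.11, edgeR adjusted p = 0.433).

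A chosen list of genes near Nppa and Nppb on chromosome 4 was followed, which does not hold every gene there: Fv1, Zfp933, Fbxo44 and Fbxo2, for example, were in the table and are not in the list. Of 10 listed genes in the table, 9 were tested (median log2 fold change 0.078). Their starts lay at -131.9 kb to 151.4 kb from that of Nppa. Of the 9, 0 were called by edgeR, DESeq2 or limma, beside 15.7% of all tested genes called by edgeR. Both an unadjusted and an adjusted p under 0.05 were reached by 2 of the 9. These were Plod1 (0.27, edgeR adjusted p = 0.0179), a collagen lysyl hydroxylase, and Agtrap (0.24, edgeR adjusted p = 0.0414), both higher. Over all tested genes 31.3% had an edgeR adjusted p under 0.05. Clcn6, the next coding gene after Nppa, was at -0.14 (edgeR adjusted p = 0.379), and Mfn2, a mitochondrial fusion gene, at 0.08 (edgeR adjusted p = 0.581).

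**Figure D4:**
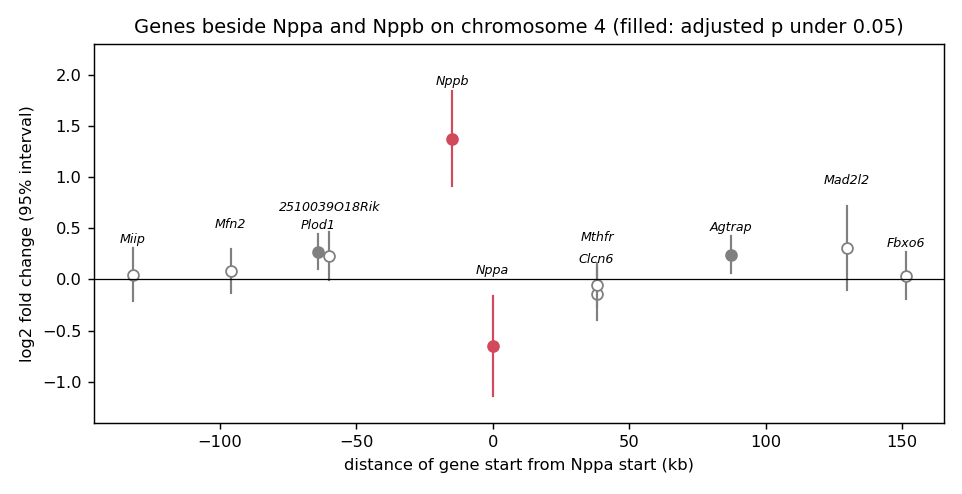
Log2 fold change with its 95% interval (vertical axis) of the tested genes of the chosen list near Nppa and Nppb, by the distance of their start from that of Nppa in kb (horizontal axis); filled points have an adjusted p under 0.05. Nppb at 1.38 and Nppa at -0.65 stand away from the 9 other genes plotted, which lie between -0.14 and 0.31. None of these 9 is called, beside 15.7% of all tested genes.

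Of 12 other genes known to respond to load and stretch, all were tested (median log2 fold change 1.144). Among them, 9 were called higher and 1 lower, beside 8.5% and 7.16% of all tested genes. The list was chosen with earlier results of these data known, so its counts do not test a response to load. Ankrd1, a stretch-sensing protein of the sarcomere, rose from 2580 ± 550 to 8790 ± 776 CPM (SD, n = 4 and 6; log2 fold change 1.77, edgeR adjusted p = 5.53e-06). Skeletal actin, Acta1, rose from 0.349 to 6.59 mean CPM (4.07), the matrix protein periostin, Postn, from 155 to 777 (2.33), Timp1 from 7.91 to 23.8 (1.59) and Csrp3 from 1010 to 2050 (1.02). The size of the Acta1 change rests on a control mean near 0, with counts of 0 to 54 over the libraries. Nes (1.31) and Ankrd23 (1.27) rose too, and Adm, the vasodilator peptide adrenomedullin, fell from 62.2 to 18.4 mean CPM (-1.76, edgeR adjusted p = 5.31e-06). The most abundant not called were Xirp2 (-0.83, edgeR adjusted p = 0.0531) and Myh7 (0.92, edgeR adjusted p = 0.208).

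**Figure D5:**
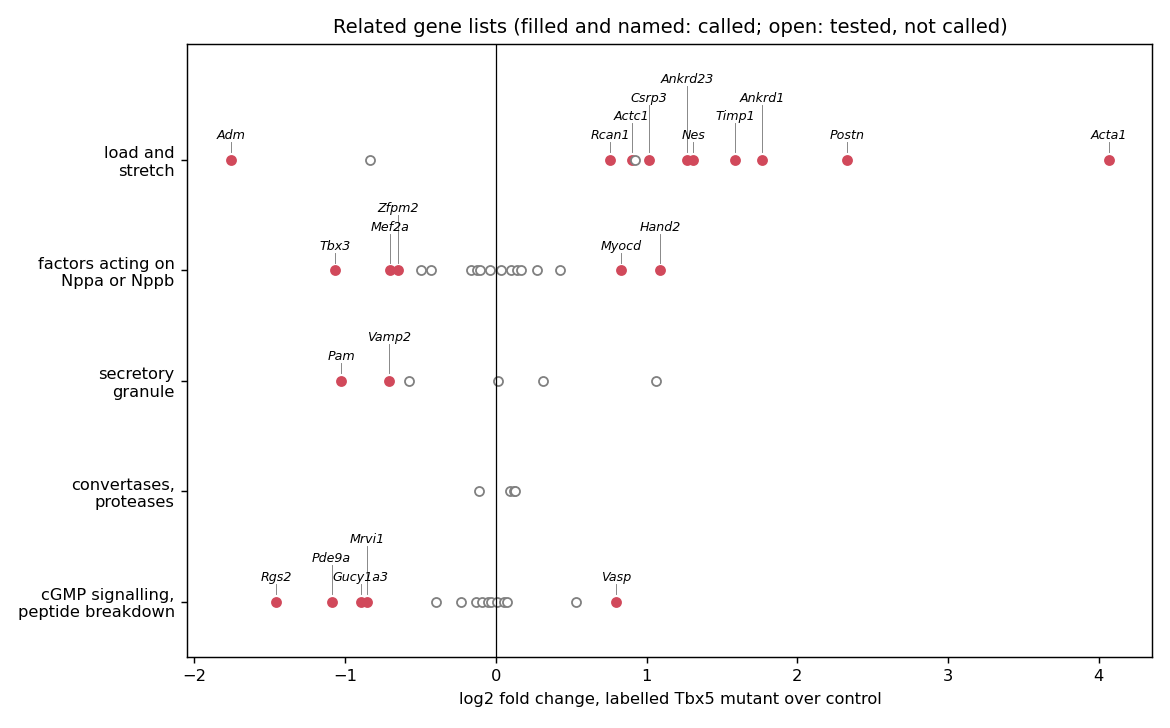
Log2 fold change (horizontal axis) of each tested gene in 5 related lists (vertical axis); red points with names are called and open points are not. Of the load and stretch genes 9 are called higher and 1, Adm, lower, whereas no convertase is called. Over all tested genes 8.5% are called higher and 7.16% lower, and the lists were chosen with earlier results of these data known.

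The lists above kept the same number of called genes in each direction when mutant M3 was left out. Markers of heart muscle and of ventricle differed between the groups, beside 7.16% called lower and 8.5% called higher over all tested genes. Of 8 heart muscle markers, 3 were called lower (Myl7 at -2.73, Ryr2 at -1.65 and Sln at -0.98) and 1 higher (Tnnt2 at 1.12), and Myh6 was at 0.10 (edgeR adjusted p = 0.711). Their summed level was 111000 to 166000 CPM in controls and 66600 to 135000 CPM in the mice labelled Tbx5 mutant. Most of this sum was Ttn, at 82400 ± 20300 and 51900 ± 27100 mean CPM (SD, n = 4 and 6), whose groups overlapped (edgeR adjusted p = 0.146). Actn2 was higher (0.33, edgeR adjusted p = 0.0263) and Myl4 lower (-0.44, edgeR adjusted p = 0.0217), each by less than the fold required. An adjusted p under 0.05 was reached by 6 of the 8, 4 lower and 2 higher, beside 31.3% of all tested genes. Of the ventricular markers tested, 2 of 3 were called higher, and the summed level of the list was 41.1 to 62.8 CPM in controls and 609 to 848 CPM in the mice labelled Tbx5 mutant, nearly all from Myl3 (45.4 and 688 mean CPM). Of the other ventricular markers, Myl2 had 4.53 and 19.4 mean CPM, Hey2 had 5.11 and 4.17 (log2 fold change -0.31, edgeR adjusted p = 0.292), and Irx4 was at 0 in all but 1 library at 1 count. The part of these markers in the results on Nppa and Nppb was not tested.

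Markers of other cells were counted in the same way, beside the same shares over all tested genes. Fibroblast markers summed to 2650 to 3300 CPM in controls and 3240 to 4470 CPM in the mice labelled Tbx5 mutant (2 of 6 called higher, the collagens Col1a1 at 1.31 and Col1a2 at 1.19). Of the other fibroblast markers, Pdgfra was lower by less than the fold required (-0.40, edgeR adjusted p = 0.0152), Dcn was at -0.01 (edgeR adjusted p = 0.952) and Lum at 0.45 (edgeR adjusted p = 0.0558). Smooth muscle markers summed to 265 to 320 and 339 to 783 CPM (2 of 6 higher), and leukocyte markers to 287 to 482 and 451 to 702 CPM (3 of 4 tested higher). Markers of endothelial cells, a known source of Nppc, summed to 1150 to 1620 and 1340 to 1630 CPM with 0 of 8 called, and epicardial markers to 288 to 303 and 179 to 343 CPM with 0 of 4 called. DESeq2 and limma called 0 in both lists too, and an unadjusted edgeR p under 0.05 was reached by 4 endothelial markers and 1 epicardial marker. An adjusted p under 0.05 was reached by 2 endothelial markers, beside 31.3% of all tested genes. Emcn was higher (0.55, edgeR adjusted p = 0.0132) and Nfatc1 lower (-0.43, edgeR adjusted p = 0.0445), each by less than the fold required. With the GC trend removed, 1 endothelial marker was called higher. Sinoatrial node markers summed to 7.0 to 22.3 and 5.83 to 10.3 CPM (2 of 3 tested lower). Those called were Hcn4 (-1.88, counts of 4 to 80) and Tbx3 (-1.07, counts of 10 to 69), both with overlapping groups. Shox2 was at 0.19 (edgeR adjusted p = 0.804). The fat cell marker Fabp4 rose (0.73), but was not called with the length trend removed (0.48). Fabp4 (152 and 252 mean CPM) made up nearly all of its list sum, 133 to 195 and 197 to 387 CPM. Adipoq (0.59 and 1.92 mean CPM), Plin1 (0.633 and 0.978) and Cidec (0.419 and 1.48) were not tested. Lung markers summed to at most 0.572 CPM. Of the red blood cell markers, Hba-a1 and Hba-a2 were at 0 in every library and Alas2 rose (1.05). Their part in the results was not tested.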

How the data were processed

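RNA-seq libraries of right atria from 10 mice were analysed. Per the labels, the submitters' processing notes name FastQC, TopHat2 2.0.11, featureCounts, DESeq2 and the build mm10, with no role or order; the library notes describe both an mRNA kit and ribosomal RNA removal. The authors deposited 1 table with a raw count per gene and library, a normalized signal (count over 1 size factor per library) and its mean. The deposited columns of the authors' own comparison, a log2 fold change and its error, a test score, p-values and a linear fold ratio, were not used.

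Counts were filtered, TMM-scaled and tested with edgeR 4.0.16 (quasi-likelihood, R 4.3.3, prior count 0.125, no covariates), with Benjamini-Hochberg adjustment over 13084 genes. A call needed an adjusted p under 0.05, a fold over 1.5 and a mean normalized signal over 1 in controls. The fit was tested on simulated data. Exact permutation tests used all 210 assignments. Alternatives were other scalings and filters, DESeq2 1.42.0, limma 3.58.1 (prior count 1), sex, a replicate block, lowess removal (span 0.4) of length or GC trends, each library left out, and other thresholds. Lengths came from GENCODE M21, for 20953 genes.

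Members, lists and markers were chosen with earlier results of these data known, and the members by name. From each list the called genes (up to 8, by size of change) and the 2 most abundant not called were eligible to be named; Gucy1a1, Gucy1b1, Irag1, Draxin, Gm13054, Nppaos, Hbb-bs and Hbb-bt were not analysed here. The genes of like pattern, the 3 of highest correlation per member, are not reported here for Npr3. Floors cover counting error only.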

Additional observations from a re-analysis of the deposited data

Results flagged for a closer look

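Among 48 groups of values examined for a library far from the rest of its group, 2 were found, where chance gives about 2.4 (1 in 20). The share of counts taken by Rn45s was 38.9% in mutant M3, and the next highest mutant was at 0.582%. The summed level of fat cell markers was 387 CPM in mutant M2, against 265 CPM in the next highest and 197 CPM in the lowest mutant. Over the mutants this sum was mostly Fabp4, at a mean of 252 CPM. No value of a natriuretic peptide, receptor or protease gene met the same criterion.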

How the results depend on the processing

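Nppb kept its direction and call in all 27 alternatives (log2 fold change 1.01 to 1.47), and Npr1 and Npr3 passed the test in none. Nppa kept its direction in all 27 (-1.18 to -0.44) and its call in 14. Its call was lost with upper-quartile scaling (-0.62, adjusted p = 0.0521), no filter (-0.65, 0.0535), limma with a trend (-0.71, 0.0624), mice labelled female (-0.44, 0.0632) and mice labelled male (-0.87, 0.168), and with single libraries left out it was -0.76 to -0.55. Npr2 lost significance with library totals alone (-0.32, 0.277), in mice labelled female (-0.26, 0.191) or male (-0.33, 0.145), with -0.34 to -0.24 for libraries left out, and Corin with library totals (-0.42, 0.175) and in mice labelled male (-0.33, 0.236), with -0.45 to -0.35 for libraries left out. Furin passed in 3 of the 27 alternatives. These were labelled sex as a covariate (-0.33, 0.044), the GC trend removed (-0.38, 0.0355) and control M1 left out (-0.40, 0.0488). For libraries left out Furin was at -0.40 to -0.22. With Xist state as the covariate in place of labelled sex, Furin did not pass (-0.33, edgeR adjusted p = 0.0786). Tbx5 was at 0.70 (0.0549) in mice labelled male. The cause of these shifts was not tested. Among mice labelled female, controls had high Ddx3y and mutants high Xist, with the reverse among mice labelled male. Fits within a labelled sex therefore do not compare groups of like sex by these transcripts.

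The ratio of Npr1 to Npr3 (log2 difference 0.14) was -0.005 to 0.272 with single libraries left out. Of 2049 calls (937 lower, 1112 higher), 1284 (653 higher) were made at a mean count of at least 50, where fewer genes were tested, 906 (367 lower, 539 higher) at a fold over 2, and 4096 (1967 lower, 2129 higher) without a fold threshold.

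Shared replicate numbers came from different mice, and the deviations of same-numbered pairs correlated at -0.00713 on average, against 0.00133 for pairs of unlike number, and a number was not taken as a pair. With a replicate block, Nppa was at -0.96 (0.00794), Nppb at 1.23 (0.00161), Npr2 at -0.31 (0.0541) and Corin at -0.40 (0.0465). No control is numbered F3 or M3, so with the block mutants F3 and M3 add nothing to the difference between groups. These 2 had the highest Nppa of the mutants (22420 and 23670 CPM). The blocks M1, M2, F1 and F2 each join a control and a mutant of unlike Xist and Ddx3y state. With the block and the length trend removed, Npr2 was at -0.29 (0.0674) and Corin at -0.30 (0.103).

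Nppc did not exceed 3 counts in any library, and whether greater depth would measure it was not tested.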
